A study of Mus musculus with 5 samples.

Results

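Genes of DNA replication and cell division were examined in sorted mouse pancreatic islet cells. The list held 54 genes, chosen by name; 53 of them had a probe set with a single gene symbol and were measured among 19938 genes in all. Ccnb1 was not analysed here. The measured genes were 25 of S phase and its approach and 28 of mitosis. Where a gene had several probe sets, the one with the highest mean signal over the 5 arrays was used.

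Each array carried RNA from 1 pool of cells sorted by flow cytometry. There were 3 pools of Flattop-positive cells and 2 pools of Flattop-negative cells, each from 4 to 6 mice. All mice were C57BL/6, untreated, 8 to 12 weeks old and heterozygous for Flattop (FVR/+), with sex not determined. Both fractions therefore carried the FVR allele, and the sort was of islet cells, not of β-cells alone. Flattop is a ciliary protein and an effector of planar cell polarity, and the series title contrasts proliferative with mature β-cells. The labels do not say that the pools came from separate sorts, so p-values measure the spread between these pools, which may be technical.

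A cell that commits to divide first licenses its replication origins by loading the MCM helicase, then fires them and copies its DNA. It then condenses its chromosomes, attaches them to the spindle under a checkpoint, and splits. Genes of the first stage are switched on by E2F factors near the G1/S border, and genes of the second by FOXM1 and the B-MYB complex in G2. Adult β-cells divide rarely, so transcripts of both stages are scarce in islets. In a pool, fewer dividing cells and less of a transcript per dividing cell cannot be told apart.

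The letters thought to carry this timing were looked for in the 250 bases before the transcription start of each gene, taken from RefSeq (GRCm38.p6). The first listed start was used, and 45 measured members and 15614 of all measured genes were matched. The CHR element of late cell cycle genes (TTTGAA, either strand) was present in 7 of 24 mitosis promoters, 2 of 21 S phase promoters and 13.7% of all promoters. The CCAAT box (either strand) was present in 17 of 24 mitosis promoters and 15 of 21 S phase promoters, against 35.5% of all promoters. An E2F site, searched as TTTCCCGC, TTTGGCGC, TTTGCCGC or TTTCGCGC on either strand, was present in 1 of 24 mitosis promoters and 6 of 21 S phase promoters, against 2.55% of all promoters. In the separate lists of other genes of each stage, CHR was in 20 of 52 mitosis and 3 of 39 S phase promoters, and E2F in 5 and 8 of them. Neighbouring matches of different motifs can share an end letter. These matches describe sequence and were not tested as sites.

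Promoters of 4 members are printed from 250 bases before the start to the base before it, with every motif match in capitals. Mki67, Prc1 and Cdk1 are shown because their signal on Flattop-positive replicate 3 stood furthest above the mean of Flattop-positive replicates 1 and 2, values partly under the floor of those arrays, and Rad54l because it was the member with the smallest p.
Mki67 (chr7:135716380-135716629, minus strand): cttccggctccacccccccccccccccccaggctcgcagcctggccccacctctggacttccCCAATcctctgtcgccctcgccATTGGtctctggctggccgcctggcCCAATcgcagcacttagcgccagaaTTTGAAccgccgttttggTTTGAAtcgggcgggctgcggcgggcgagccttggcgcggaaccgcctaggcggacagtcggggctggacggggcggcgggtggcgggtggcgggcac
Prc1 (chr7:80294201-80294450, plus strand): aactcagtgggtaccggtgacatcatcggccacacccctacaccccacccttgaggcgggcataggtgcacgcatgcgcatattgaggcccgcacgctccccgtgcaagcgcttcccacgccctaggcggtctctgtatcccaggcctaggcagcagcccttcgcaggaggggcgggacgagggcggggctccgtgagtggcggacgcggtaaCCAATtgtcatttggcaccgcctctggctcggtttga
Cdk1 (chr10:69352913-69353162, minus strand): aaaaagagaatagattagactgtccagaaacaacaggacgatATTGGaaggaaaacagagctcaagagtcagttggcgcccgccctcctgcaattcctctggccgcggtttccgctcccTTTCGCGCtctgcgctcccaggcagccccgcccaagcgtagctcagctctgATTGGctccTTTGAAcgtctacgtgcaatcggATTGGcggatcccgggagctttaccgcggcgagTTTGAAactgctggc
Rad54l (chr4:116123691-116123940, minus strand): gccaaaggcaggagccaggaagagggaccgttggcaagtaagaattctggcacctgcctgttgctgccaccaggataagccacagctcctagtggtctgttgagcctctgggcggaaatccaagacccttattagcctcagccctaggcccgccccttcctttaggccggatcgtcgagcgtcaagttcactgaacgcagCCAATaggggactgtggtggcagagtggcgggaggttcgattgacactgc
The Mki67 promoter held 3 CCAAT boxes, the nearest at -141, followed by 2 CHR elements at -116 and -98. The Cdk1 promoter held an E2F site at -131, CCAAT boxes at -208, -80 and -48, and CHR elements at -71 and -15. Prc1 and Rad54l each held 1 CCAAT box, at -37 and -50, and neither of the other motifs in this window. For each of them 2 windows were listed and only the first was searched, whereas Mki67 and Cdk1 had 1 each.

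Most of these genes lay close to the floor of the arrays. The floor was taken on each array as the 95th percentile of 1027 olfactory receptor genes, which stand in here for genes with little or no transcript. It stood at 4.29, 4.44 and 4.45 log2 units on Flattop-positive replicates 1, 2 and 3, against 4.75 and 4.86 on Flattop-negative replicates 1 and 2. The floor was thus higher on both Flattop-negative arrays, and the median olfactory receptor gene differed by -0.27 log2 units, an offset that lies in the same direction as a lower signal of any gene near the floor. Of the members, 12 of 53 (22.6%) were above the floor on all 5 arrays, against 50.6% of all genes, and 13 (24.5%) were above it on none, against 30.9% of all genes. The 12 were 9 S phase genes (Pcna, Mcm2, Mcm4, Mcm6, Gins2, Prim1, Rrm1, Tyms and Tk1) and 3 mitosis genes (Ccnb2, Cdc20 and Aurka). For Tk1 this depended on the probe set: its other probe set read 4.68 on Flattop-negative replicate 1, under the floor.

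Flattop-positive replicate 3 stood apart from the other 4 arrays in these genes. On it 20 of 28 mitosis genes were above the floor, against 6 and 12 on Flattop-positive replicates 1 and 2 and 6 and 10 on Flattop-negative replicates 1 and 2. S phase genes above the floor numbered 16, 15 and 18 of 25 on the Flattop-positive arrays, against 11 and 14 on the Flattop-negative arrays. The share of all genes above the floor was 63.1%, 61.6% and 62.6% against 57.2% and 59.2%, so the step on replicate 3 was not one of all genes. Of the members, 9 were above the floor on replicate 3 and on no other array, and 7 of them were mitosis genes, among them Cdk1, Bub1, Ndc80 and Nuf2.

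**Figure D1:**
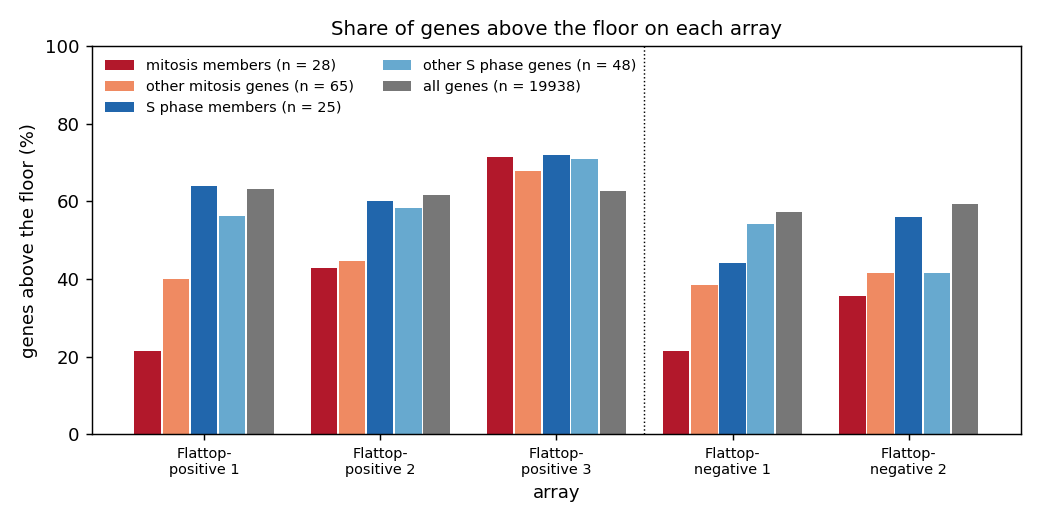
Bars give the percentage of genes above the floor (95th percentile of olfactory receptor genes) on each array, for mitosis and S phase members, 2 wider lists of the same stages and all genes. Mitosis members reach 71.4% on Flattop-positive replicate 3 and lie between 21.4% and 42.9% on the other 4 arrays.

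The highest of the 5 arrays was Flattop-positive replicate 3 for 35 of 53 members, 19 of mitosis and 16 of S phase, against 13.6% of all genes. Within the Flattop-positive arrays it was above both others for 48 of 53 members, against 35.8% of all genes. The exceptions were Ccne2, Cdk2, Top2a, Ttk and Plk4. For 2 genes this depended on the probe set. The other probe set of Tk1 read 5.13 on replicate 3 against 5.46 on replicate 2, and that of Top2a was highest on replicate 3. Relative to the mean of replicates 1 and 2, replicate 3 was higher by a median of 0.87 log2 units over mitosis genes and 0.66 over S phase genes, against 0.00 over all genes. More than 1 log2 unit separated them for 17 of 53 members and for 3.14% of all genes. The SD between the 3 Flattop-positive arrays had a median of 0.50 over the members and 0.20 over all genes. Since this compares a single array with others of its own group, no test was made.

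**Figure D2:**
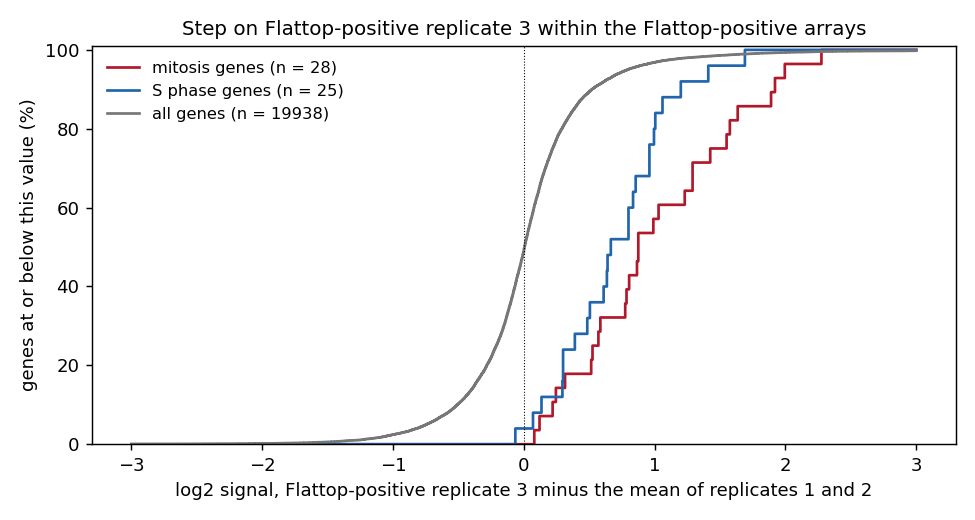
Cumulative curves of the log2 signal of Flattop-positive replicate 3 minus the mean of Flattop-positive replicates 1 and 2, for mitosis genes, S phase genes and all genes. The curve of all genes crosses its middle at 0.00, and those of the S phase and mitosis genes at 0.66 and 0.87.

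Markers of other cells moved in part with that array. Flattop-positive replicate 3 was the highest array for 5 of 11 β-cell markers and 1 of 7 duct, 1 of 18 leukocyte and 0 of 12 endothelial, 0 of 12 stellate, 0 of 9 acinar, 0 of 7 δ- and PP-cell and 0 of 6 α-cell markers. The median leukocyte marker read 4.35, 4.14 and 4.54 log2 units on the Flattop-positive arrays, against 4.23 and 5.21 on the Flattop-negative arrays. Within the Flattop-positive arrays, replicate 3 was above both others for 5 of 7 δ- and PP-cell, 8 of 12 stellate, 10 of 18 leukocyte, 6 of 12 endothelial, 3 of 6 α-cell, 5 of 11 β-cell, 4 of 9 acinar and 2 of 7 duct markers, against the 35.8% of all genes. Its median step was 0.60 log2 units over δ- and PP-cell markers, close to that of the S phase genes, and from -0.30 (duct) to 0.18 (α-cell) over the other lists just named. The part of these markers in the step was not tested. β-cell markers were above the floor, 11 of 11 on each array except Flattop-negative replicate 1, with 10. Between the groups all 11 lay higher in the Flattop-positive arrays, by a median of 1.26 log2 units. Of them 9 lay higher without overlap, against 13.7% of all genes, and 0 passed an adjusted p of 0.05 in limma. Median differences of the other lists named here ran from -0.61 (acinar) to 0.04 (duct). The part of these differences in the members' levels was not tested.

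Mki67, which coats mitotic chromosomes and marks cycling cells, showed the step most plainly. It read 4.15, 4.69 and 6.69 log2 units in Flattop-positive replicates 1, 2 and 3, against 4.45 and 5.12 in Flattop-negative replicates 1 and 2. Replicate 1 and Flattop-negative replicate 1 were under their floors, the groups overlapped, and the log2 difference was 0.39 ± 0.78 (SE, adjusted p = 0.825 in limma). Without replicate 3 the sign turned, with all but that array between 4.15 and 5.12. Top2a, the topoisomerase that untangles sister chromatids, had 2 probe sets that disagreed. The one used read 4.52, 3.67 and 4.40 in the Flattop-positive arrays, against 4.88 and 3.90, and is annotated only to a cDNA clone. The other, annotated to the RefSeq transcript, read 3.46, 3.78 and 6.09, against 3.98 and 3.99, and so was highest on the same array as Mki67. Its other 4 arrays were under their floors, so the size of that step is not given.

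Of the 10 mitotic cyclins, kinases and regulators, 6 were highest on Flattop-positive replicate 3, and Cdc20, Aurkb and Melk were highest on Flattop-negative replicate 2 and Plk4 on Flattop-negative replicate 1. Cdk1, the kinase that drives entry into mitosis, read 3.80, 4.22 and 5.93 in the Flattop-positive arrays, against 4.08 and 4.83 in the Flattop-negative arrays. Its partner Ccna2 (cyclin A2) read 4.18, 5.25 and 6.29, against 5.17 and 5.59. Replicate 3 was the highest and replicate 1 the lowest array for both, and the Flattop-negative arrays lay between. Ccnb2 (cyclin B2), above the floor on every array, read 4.71, 5.23 and 6.86, against 5.75 and 6.03, a difference of -0.29 ± 0.64 (SE, adjusted p = 0.845 in limma). The Polo kinase Plk1 read 4.06, 4.78 and 4.93, against 4.10 and 4.50. Aurkb, the chromosomal passenger kinase, read 4.52, 4.48 and 5.28, against 4.60 and 5.34. For Aurkb the 2 highest arrays were thus 1 of each group. Foxm1, the transcription factor of the G2 genes, read 4.25, 4.45 and 5.38, against 4.26 and 4.28, and was above the floor only on Flattop-positive replicates 2 and 3. Plk4, which starts centriole copying, stayed under the floor on every array, at 3.93, 4.36 and 4.27 against 4.73 and 4.50.

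Kinetochore and checkpoint genes were mostly at the floor outside replicate 3, where 5 of 9 were above it, against 1 and 2 on the other Flattop-positive arrays and 0 and 1 on the Flattop-negative arrays. Mad2l1, the checkpoint protein that holds back anaphase, read 4.52, 4.74 and 5.92, against 4.74 and 4.41. It was above the floor on all 3 Flattop-positive arrays and on neither Flattop-negative array, with a difference of 0.49 ± 0.46 (SE, adjusted p = 0.625 in limma). Flattop-negative replicate 1 lay just under its floor of 4.75, which was higher than the floors of the Flattop-positive arrays, and the groups overlapped. Bub1, the checkpoint kinase, read 3.26, 3.73 and 4.48, against 3.18 and 3.61. Of the centromere proteins, Cenpa read 4.24, 4.54 and 6.02, against 4.13 and 5.44, the 2 highest arrays again being 1 of each group. Spindle and cytokinesis genes numbered 0, 2 and 6 of 7 above the floor on the Flattop-positive arrays, against 1 and 3. Prc1, which bundles the midzone microtubules, read 3.45, 4.07 and 5.76, against 3.45 and 4.92. The kinesin Kif20a ran the other way, at 4.26, 4.59 and 4.99 against 5.30 and 5.02, without overlap, though its nearest arrays almost touched (difference -0.55 ± 0.28, SE, adjusted p = 0.431 in limma).

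**Figure D3:**
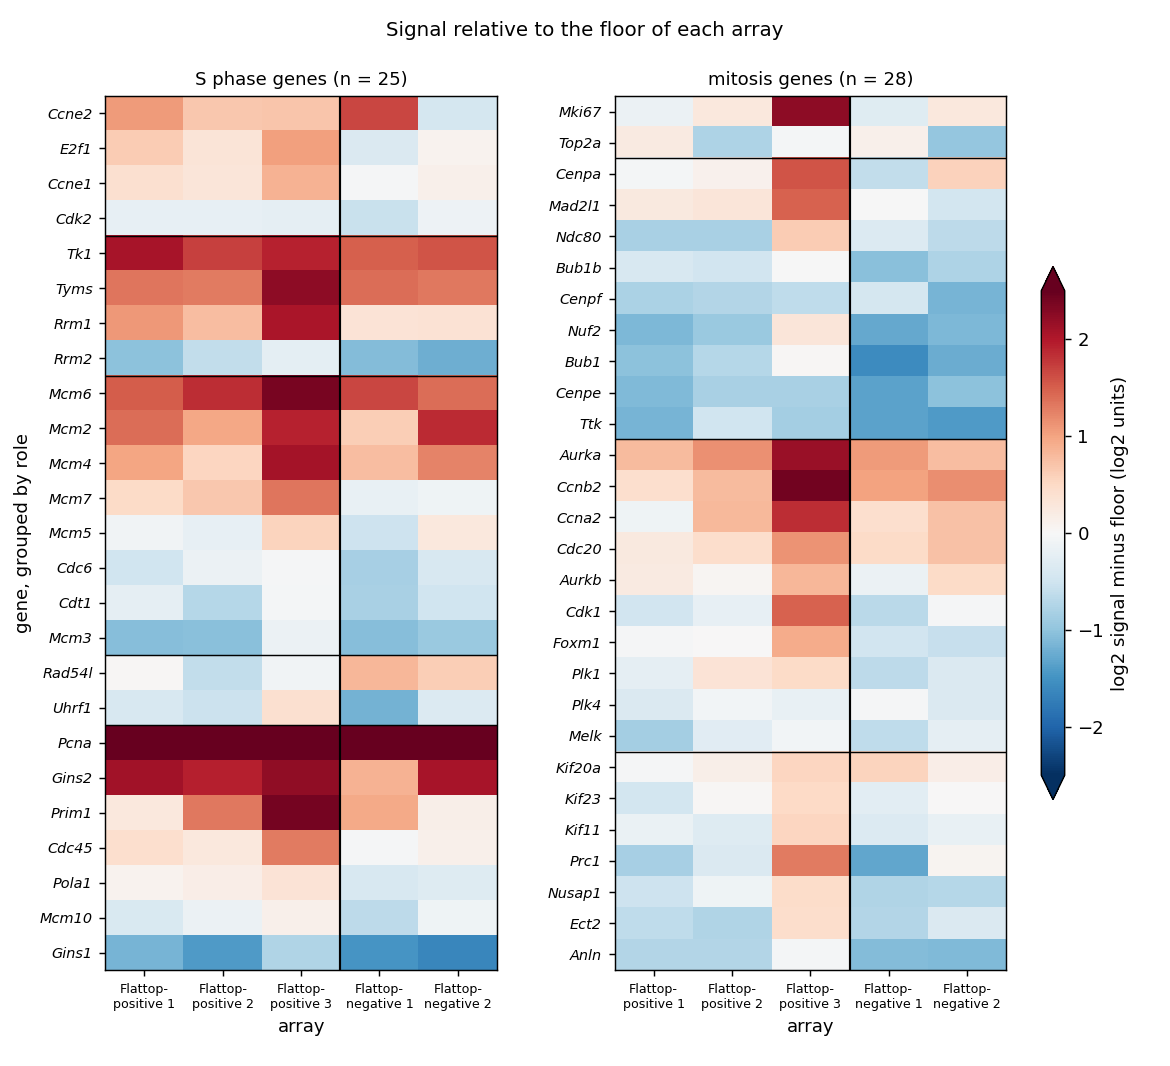
Colour gives the log2 signal of each gene minus the floor of the array, with arrays in columns and genes in rows grouped by role. S phase genes are on the left and mitosis genes on the right. Flattop-positive replicate 3 has 38 of 53 genes above the floor, against 22 and 27 on Flattop-positive replicates 1 and 2 and 17 and 24 on the Flattop-negative arrays; colours end at 2.5 log2 units.

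S phase genes showed the same array with a smaller step. The MCM helicase subunit Mcm2 read 5.68, 5.41 and 6.38 in the Flattop-positive arrays, against 5.36 and 6.73 in the Flattop-negative arrays. Mcm5 read 4.20, 4.23 and 5.01, against 4.23 and 5.13. In both, the high arrays were replicate 3 of the Flattop-positive and replicate 2 of the Flattop-negative group. On the deposited scale Mcm7 was the only member that lay higher in the Flattop-positive arrays without overlap, at 4.77, 5.11 and 5.79 against 4.57 and 4.75 (difference 0.57 ± 0.34, SE, adjusted p = 0.482 in limma). Its nearest arrays almost touched, and both Flattop-negative arrays were under the floor. For comparison, 13.7% of all genes lay higher without overlap. The count of 1 held as deposited. It was 10 with quantile normalisation repeated, 10 after cyclic loess, 10 without Flattop-positive replicate 1 and 11 without Flattop-negative replicate 2. The share of all genes under those settings is not given here, so these counts cannot be read as a result about the members. Leaving an array out can raise that share: without Flattop-positive replicate 3 it was 19.6%.

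At the fork, Pcna, the sliding clamp, read 9.16, 8.75 and 9.91, against 9.30 and 8.76, and its second probe set gave nearly the same values. Prim1, the primase that lays RNA primers, read 4.56, 5.76 and 6.84, against 5.69 and 5.01, so replicate 1 was the lowest array and replicate 3 the highest. Of the nucleotide enzymes, Rrm1, the large subunit of ribonucleotide reductase, read 5.37, 5.22 and 6.49, against 5.09 and 5.23. Its small subunit Rrm2 stayed under the floor, at 3.27, 3.81 and 4.20 against 3.67 and 3.64. Tyms, thymidylate synthase, read 5.63, 5.73 and 6.68, against 6.15 and 6.17, with both Flattop-negative arrays between.

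Over the 4 G1/S regulators replicate 3 was higher by a median of 0.34 log2 units, against 0.82 over the 8 origin licensing genes; the difference was not tested. Ccne1 (cyclin E1) read 4.69, 4.74 and 5.32, against 4.72 and 4.98. Ccne2 (cyclin E2) read 5.35, 5.10 and 5.16, against 6.41 and 4.42, so the Flattop-negative pools were its highest and lowest arrays. E2f1, an activator of S phase genes, read 4.92, 4.76 and 5.48, against 4.38 and 4.96. Uhrf1, which carries DNA methylation through replication, read 3.89, 3.89 and 4.85, against 3.57 and 4.51, and was above the floor on replicate 3 alone.

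Rad54l, a motor protein of homologous recombination, was the member with the smallest p. It read 4.31, 3.82 and 4.36 in the Flattop-positive arrays, against 5.57 and 5.48 in the Flattop-negative arrays. The groups did not overlap, and the gap between the nearest arrays was wider than the range within either group. Its mean was 4.17 ± 0.30 (SD, n = 3) in Flattop-positive and 5.52 ± 0.07 (SD, n = 2) in Flattop-negative arrays. The log2 difference was -1.36 ± 0.24 (SE), a 2.56-fold lower level, and did not pass over all genes in limma (adjusted p = 0.199, unadjusted p = 0.00169). Flattop-positive replicates 2 and 3 were under the floor and replicate 1 just above it, so the size of the difference is uncertain.

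Between the groups, 0 of 53 members passed an adjusted p of 0.05 in limma, as did 0.0% of all genes. At an unadjusted p under 0.05 there were 0 members higher and 1 lower (Rad54l), against 8.48% and 5.37% of all genes. Members without overlap were 1 higher and 3 lower (Rad54l, Kif20a and Plk4), against 13.7% and 21.0% of all genes. Of the 1027 olfactory receptor genes, which mark the floor, 8 lay higher and 432 lower without overlap. The median log2 difference was -0.02 over S phase genes, with 12 higher and 13 lower, and -0.05 over mitosis genes, with 14 each way; over all genes it was -0.10. Of the mitosis genes, 6 are also made or act in S phase (Mki67, Top2a, Ccna2, Cdk1, Plk4 and Melk), and without them the mitosis median was 0.09. With 3 and 2 arrays, exact permutation has a smallest one-sided p of 0.1, so it was not run.

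The direction of these medians rested on which pools were included. Without Flattop-positive replicate 3 the median was -0.40 over mitosis genes and -0.18 over S phase genes, against -0.11 over all genes and -0.26 over olfactory receptor genes, and 42 of 53 members lay lower in the Flattop-positive arrays. In that comparison 16 members lay lower without overlap and 1 higher, against 28.3% and 19.6% of all genes. At an unadjusted p under 0.05, 0 lay higher and 4 lower, against 7.71% and 3.15% of all genes: Rad54l, Ccnb2 (-0.92), Ndc80 (-0.75) and Kif20a (-0.73), with adjusted p from 0.391 to 0.449 in limma. Without Flattop-positive replicate 1 the medians were 0.32 over mitosis genes and 0.18 over S phase genes, and 16 members lay lower. Without Flattop-negative replicates 1 and 2 in turn the mitosis median was -0.15 and 0.11, and the S phase median -0.14 and 0.12. The Flattop-negative pools also differed from each other (r = 0.846 over genes, against 0.953 to 0.984 between Flattop-positive arrays), with replicate 2 above replicate 1 for 39 of 53 members, against 54.5% of all genes. Markers of other cells were also higher on replicate 2 than on replicate 1: 7 of 7 δ- and PP-cell (median 2.44 log2 units), 7 of 7 duct (1.49), 6 of 6 α-cell (1.03), 7 of 9 acinar (0.81), 14 of 18 leukocyte (0.70), 11 of 12 stellate (0.52) and 10 of 12 endothelial markers (0.48), against 0.32 over mitosis and 0.24 over S phase genes. Their part in the members' levels was not tested.

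**Figure D4:**
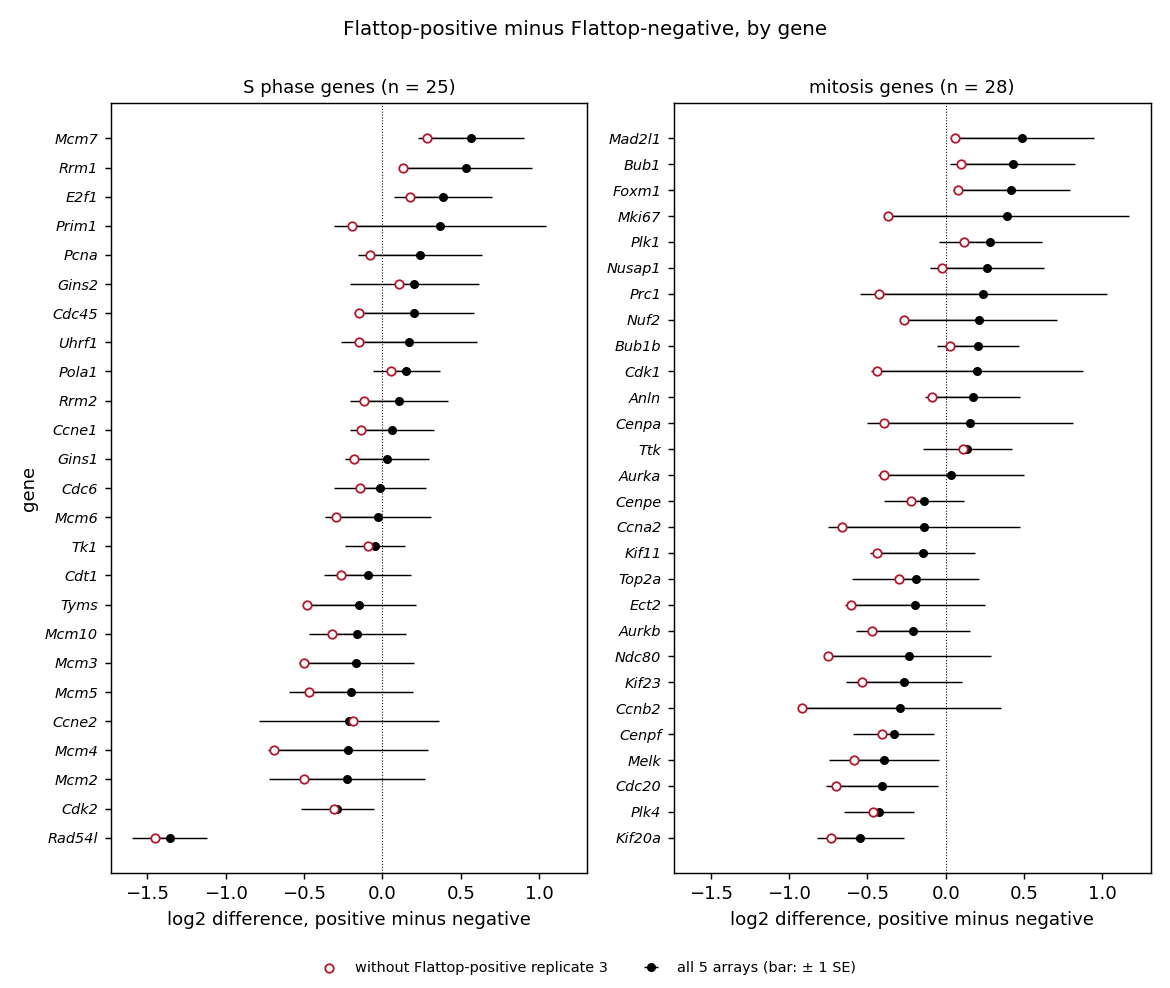
Log2 difference of Flattop-positive minus Flattop-negative arrays for each S phase gene (left) and mitosis gene (right), from all 5 arrays (filled, with 1 SE) and without Flattop-positive replicate 3 (open). Leaving that array out moves the mitosis median from -0.05 to -0.40 and the S phase median from -0.02 to -0.18, while Rad54l stays lowest at -1.36 and -1.45.

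Wider lists of the same stages gave a like picture for Flattop-positive replicate 3. Of 48 other S phase genes and 65 other mitosis genes measured, replicate 3 was the highest array for 26 and 32, and above both other Flattop-positive arrays for 37 and 57. Between the Flattop-negative arrays the S phase lists differed. Replicate 2 was above replicate 1 for 18 of 25 members (median 0.24 log2 units) but for 22 of 48 others (-0.18). For mitosis genes it was 21 of 28 members and 44 of 65 others. Between the groups the medians were -0.0034 and -0.11 log2 units, and 0 genes of either list passed an adjusted p of 0.05 in limma. At an unadjusted p under 0.05, 4 other S phase genes lay higher and 1 lower, and 1 other mitosis gene lay higher and 0 lower, against 8.48% higher and 5.37% lower of all genes. The share of the S phase list that lay higher was thus near that of all genes. The 4 were Pold2, a DNA polymerase δ subunit (1.33 ± 0.22, SE), the single-strand binding proteins Rpa1 (0.99 ± 0.20) and Rpa3 (1.25 ± 0.26), and the clamp loader subunit Rfc2 (1.18 ± 0.38), with adjusted p from 0.199 to 0.299. Pold2 read 6.91, 6.81 and 7.30 in the Flattop-positive arrays, against 5.67 and 5.68 in the Flattop-negative arrays, without overlap. The checkpoint kinase Chek1, named after its value was seen, lay lower, at 5.05, 5.05 and 5.20 against 7.08 and 5.71. The mitosis gene was Bub3, a checkpoint protein, at 6.98, 6.75 and 6.98 against 6.37 and 5.81. Pold2, Rpa1, Rpa3 and Rfc2 act in DNA repair as well as in replication. Pold2, Rpa1 and Bub3 were above the floor on all 5 arrays.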

How the data were processed

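Gene expression was measured on 5 arrays, 3 Flattop-positive and 2 Flattop-negative. The authors deposited 1 log2 signal for each probe set. RMA and Expression Console (version 1.3.0.187) are named in the submitters' processing notes. A genome build was not given in the sources used here; no detection calls were used. RMA normalises between arrays, so a shift shared by most genes can be removed. The deposited values still differed in spread between the groups. Over the 19938 genes the SD was 1.93, 1.83 and 1.86 log2 units on Flattop-positive replicates 1, 2 and 3. It was 1.65 and 1.63 on Flattop-negative replicates 1 and 2. Of 35556 probe sets, 21789 had 1 symbol and gave 19938 genes; the probe set with the highest mean was kept where a gene had several. All 53 measured members matched the RefSeq gene table (GRCm38.p6).

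The fit was made with limma 3.58.1 under R 4.3.3, with group as its only term; tests were two-sided, and every adjusted p is limma's, by Benjamini-Hochberg over the 19938 genes. The model was tested on simulated data. Tables were handled in pandas 2.3.3 and figures in matplotlib 3.10.9. Members and lists were chosen with earlier results of these data known. Values on every array are given for a fixed set of members, for any with an unadjusted p under 0.05 and for the 5 of each stage with the largest difference; Ccnb2, Cenpa, Ndc80 and Prc1 were named after their values were seen. Of the wider lists the genes with the smallest p are named. Alternatives were each array left out, a replicate block, other normalisations, probe set rules, variance models, floors and filters. Only 5 arrays limit the precision.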

Additional observations from a re-analysis of the deposited data

How the results depend on the processing

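No member passed an adjusted p of 0.05 in limma under any of 13 alternatives (0 members each), though 434 other genes did without Flattop-negative replicate 2. At an unadjusted p under 0.05 there was 1 member, and between 1 and 4 with single arrays left out, the lone array then being assumed to vary like the others. With the replicate number as a block (4 arrays, 2 pairs) there were 2, Rad54l and Ccnb2, and the medians were those without Flattop-positive replicate 3. The numbers do not show a pairing: differences between replicates 1 and 2 correlated at r = 0.02 over genes. Members higher without overlap numbered 1, with 3 when both numbered pairs had to agree (replicate block), 4 on arrays centred on their medians, 10 with quantile normalisation repeated, 10 after cyclic loess, 2 with the mean over probe sets, and 1 to 11 with single arrays left out. Members lower without overlap numbered 3, with 1 on centred arrays and 3 to 16 with single arrays left out. By pairs 30 lay lower, under a looser rule that asked only for both numbered differences to share that direction. Shares of all genes are not given for these alternatives, except without Flattop-positive replicate 3. The higher and lower counts therefore cannot be read as a result about the members. The cause of the shifts in them was not tested. The all-gene median was -0.01 after cyclic loess, against -0.10 as deposited. Medians over S phase genes ran from -0.18 to 0.18 and over mitosis genes from -0.40 to 0.32 with single arrays left out, within 1 SD of the array medians, and both were above 0 on centred arrays, after repeated quantile normalisation and after cyclic loess (0.12 for each after loess); the mitosis median was 0.09 without genes of both stages. Members above the floor on all 5 arrays numbered 12, with 5 at the 99th percentile of olfactory receptor genes, 18 at the 90th, and 12 to 16 with single arrays left out. No block applies to that count. Genes highest on Flattop-positive replicate 3 numbered 18 to 19 (S phase) and 21 to 23 (mitosis) under the 3 normalisations, alternatives chosen after seeing the data; with dim genes left out, which keeps 26 members, they were 10 and 7, and those above both other Flattop-positive arrays were 15 and 10. Of 24 members given on every array by the rule, 10 kept their sign in every alternative, among them Rad54l (-1.12 to -1.45, adjusted p from 0.0837 to 0.804). The other 14, none past the adjusted threshold, changed sign in at least 1. With array weights 35 of 53 members lay lower, against 27.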

Other observations

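Some other late cell cycle genes showed larger steps between pools, named here after their values were seen. Pbk, a mitotic kinase, read 3.32, 3.41 and 6.67 log2 units in Flattop-positive replicates 1, 2 and 3, against 4.21 and 4.45 in Flattop-negative replicates 1 and 2. It was above the floor on Flattop-positive replicate 3 alone, so the size of its step is uncertain. Stmn1, a microtubule regulator, read 5.83, 6.63 and 8.99, against 6.63 and 7.63, and was above the floor on all 5 arrays. Hmgb2, a chromatin protein abundant in dividing cells, read 6.49, 5.51 and 9.46, against 7.99 and 9.55. For all 3 genes Flattop-positive replicate 3 was above both other Flattop-positive arrays, and for Hmgb2 it stood beside Flattop-negative replicate 2. That held for 57 of the 65 other mitosis genes. Pttg1, above the floor on all 5 arrays, was lowest of the Flattop-positive arrays on replicate 3, at 8.185, 7.858 and 6.975 for replicates 1, 2 and 3.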
